A study of Mus musculus with 24 samples.

Results

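Oxidative phosphorylation is built from the genes of 2 genomes, and the mRNAs of both were measured here in long-term haematopoietic stem cells (LT-HSCs) of chimeric mice. The members were the protein-coding rows whose symbol begins with Nduf, Uqcr, Cox4, Cox5, Cox6, Cox7, Cox8 or Atp5, the 4 Sdh genes, Cyc1 and the protein-coding genes of mitochondrial DNA. Of the 38215 genes in the table, 106 rows matched these names and 99 of them had a mean of at least 10 counts over the 24 libraries. These 99 comprised 86 nuclear and 13 mitochondrial genes, and all 99 passed the count filter of the test. The nuclear genes encode 36 subunits of complex I, 4 of complex II, 9 of complex III, 13 of complex IV (Ndufa4, named for complex I, is counted there) and 15 of complex V, besides 9 assembly or associated factors. The 7 rows below the minimum were Cox6a2, Cox7a1, Cox7b2, Cox8b, Cox8c, Ndufa4l2 and Atp5l-ps1, all alternative isoforms or copies of members, and none had a mean above 4.54 counts.

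In oxidative phosphorylation, complex I (NADH dehydrogenase) and complex II (succinate dehydrogenase) feed electrons to ubiquinone, complex III passes them to cytochrome c, and complex IV gives them to oxygen. Complexes I, III and IV pump protons across the inner mitochondrial membrane, and complex V (ATP synthase) makes ATP as the protons flow back. Mitochondrial DNA encodes core membrane subunits of every complex except complex II and is transcribed by its own polymerase, while the other subunits are made from nuclear genes and imported. Quiescent LT-HSCs are known for a low rate of respiration, which rises when they divide.

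The mice were Ptprca/b C57BL/6J recipients, lethally irradiated with 11 Gy, that had received equal parts of bone marrow from a Jak2+/+ donor (Ptprca/a) and from a donor with the genotype Jak2 fl-V617F/+, Tg(E2A-cre). The V617F change makes the kinase JAK2 active without cytokine and is the common driver of myeloproliferative neoplasms; the labels give the strain of both donors as C57Bl/6N, and the E2A-cre transgene was carried by the Jak2V617F cells only, so the allele and the transgene cannot be told apart. Vehicle (PBS with bovine serum albumin) was given to 6 recipients, and the other 6 were given 600 ng of pegylated interferon alpha (pegIFNa) under the skin each week, 5 doses over 4 weeks, with cells taken 48 h after the last dose. The sorting gate was Lin-/Sca1+/cKit+/CD150+/CD48-, with CD45.1+/CD45.2- cells as wild-type and CD45.1-/CD45.2+ cells as Jak2V617F. Each mouse gave 1 library of each genotype, which made 4 groups of 6: wild-type vehicle, wild-type pegIFNa, Jak2V617F vehicle and Jak2V617F pegIFNa. Ages and donor numbers were not given in the sources used here, so the spread between libraries is that between recipients.

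The libraries held 24620796 to 39740610 counts. Each of the 8 positive LT-HSC markers was detected in every group, but their gate marker Cd48, which should be absent, had mean levels, in CPM (counts relative to a library's total, scaled by TMM factors), of 7.80 for wild-type vehicle, 26.3 for wild-type pegIFNa, 12.4 for Jak2V617F vehicle and 33.0 for Jak2V617F pegIFNa. Summed over the 9 genes, the list ran from 1586 to 2284 CPM without and from 992 to 1362 CPM with pegIFNa in wild-type cells. By the test described below, 6 of the 9 were lower and 2 higher with pegIFNa there. On sex-linked genes 2 libraries stood apart. Xist was at 599.8 CPM and the Y-linked Ddx3y at 98.9 CPM in replicate 4 of wild-type vehicle, against 1801 to 3310 and at most 29.1 CPM in the other wild-type libraries. Ddx3y also differed between the other wild-type libraries by treatment, from 7.74 to 29.1 CPM under vehicle and from 0.893 to 11.4 under pegIFNa. In Jak2V617F libraries it ran from 54.1 to 92.6 CPM. The cause of the Y-linked counts in wild-type libraries was not tested. Xist was at 653.9 CPM in replicate 1 of Jak2V617F pegIFNa, against 3.00 to 110.1 CPM in the other Jak2V617F libraries. The genotype thus cannot be told apart from the sex of the donor cells. Results without 1 or both of the libraries that stood apart are given for some comparisons.

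As shares of the library, the treated groups lay on opposite sides of vehicle for the 2 genomes. In wild-type cells, the 86 nuclear genes took 0.597, 0.685 and 0.765% of all counts (lowest, median and highest of 6 libraries) under vehicle and 0.796, 0.835 and 0.884% under pegIFNa, and the groups did not overlap. The 13 mitochondrial genes took 2.42, 2.84 and 3.88% under vehicle and 1.499, 1.74 and 2.18% under pegIFNa, again without overlap. In Jak2V617F cells the nuclear share was 0.730, 0.823 and 0.862% under vehicle and 0.841, 0.954 and 1.00% under pegIFNa, with overlap. Their mitochondrial share was 2.61, 2.99 and 3.35% under vehicle and 1.96, 2.45 and 3.14% under pegIFNa, also with overlap. Within the Jak2V617F pegIFNa group, replicates 1, 4 and 6 were at 2.76, 3.14 and 3.03% and replicates 2, 3 and 5 at 2.15, 1.96 and 2.00%. Mitochondrial counts per nuclear count had a median of 4.19 in wild-type vehicle, 2.15 in wild-type pegIFNa, 3.78 in Jak2V617F vehicle and 2.54 in Jak2V617F pegIFNa. In bulk libraries of sorted cells, fewer cells of a type and less RNA per cell cannot be told apart.

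**Figure D1:**
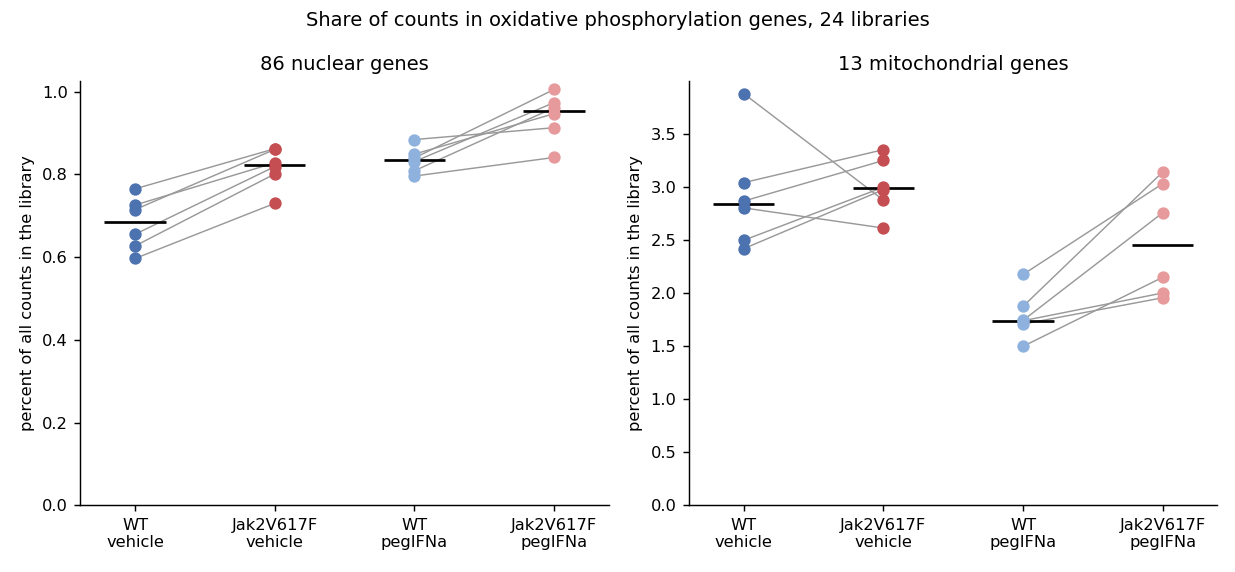
Percent of all counts of a library taken by the 86 nuclear (left) and the 13 mitochondrial genes (right) in the 24 libraries, with the group median as a bar and a grey line joining the 2 libraries of each mouse. The nuclear share was higher in Jak2V617F than in wild-type cells of the same mouse in every vehicle and every pegIFNa mouse. The mitochondrial share was higher in each of the 6 pegIFNa mice but not in every vehicle mouse.

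The first comparison asks what interferon treatment changed in wild-type LT-HSCs. Of the 86 nuclear members, 76 rose and 2 fell under pegIFNa (edgeR quasi-likelihood test, Benjamini-Hochberg adjusted p under 0.05 over all 15879 genes tested), while all 13 mitochondrial members fell. Among all genes tested, 28.2% rose and 28.7% fell. The median log2 fold change was 0.40 for the nuclear members and -0.69 for the mitochondrial members, where the median of all genes was -0.01. Without wild-type vehicle replicate 4 the nuclear median was 0.36 and the mitochondrial median -0.72. The whole range of the 6 treated libraries lay above that of the vehicle libraries for 47 nuclear members (15.1% of all genes) and below it for 7 mitochondrial members (14.8% of all genes). In the text below, fold changes are log2 values ± their standard error, and levels are CPM in the order lowest, median and highest library.

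The nuclear changes ran through all 5 complexes: 33 of 36 complex I subunits, 4 of 4 in complex II, 8 of 9 in complex III, 10 of 13 in complex IV and 15 of 15 in complex V rose. Cyc1 (cytochrome c1 of complex III, ENSMUSG00000022551, chromosome 15, 76343523 to 76345934) had levels of 71.5, 81.2 and 100.5 CPM under vehicle and 131, 139.8 and 149 under pegIFNa, without overlap. Its log2 change of 0.75 ± 0.09 (adjusted p = 1.1e-07) was the largest of the 86. Sdhb, the iron-sulphur subunit of complex II (ENSMUSG00000009863, chromosome 4, 140961203 to 140979193), stood at 45.3, 60.0 and 67.5 CPM against 86.6, 96.2 and 103 (0.69 ± 0.08, adjusted p = 1.5e-07). Its partner Sdha, the flavoprotein that oxidises succinate, was at 252, 312 and 335 CPM against 333, 344 and 353, with overlapping ranges (0.17 ± 0.06, adjusted p = 0.023). The membrane anchors Sdhc and Sdhd rose by 0.36 ± 0.06 and 0.42 ± 0.07.

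In complex I, Ndufs5 (an accessory subunit, ENSMUSG00000028648, chromosome 4, 123712710 to 123718202) ran at 14.3, 16.9 and 18.7 CPM under vehicle and 23.2, 27.1 and 30.6 under pegIFNa (0.69 ± 0.09, adjusted p = 7.1e-07). Ndufs7, an iron-sulphur core subunit of the module that reduces ubiquinone, ran at 52.2, 53.7 and 61.6 CPM against 77.2, 84.3 and 90.0 (0.63 ± 0.07, adjusted p = 1.8e-07). Both pairs of ranges were separate. In complex I 3 subunits did not pass: Ndufv3 of the NADH module (0.08 ± 0.07), Ndufab1, the acyl carrier protein (0.22), and Ndufb11 (0.12). In complex V, Atp5b, the beta subunit of the catalytic head (ENSMUSG00000025393, chromosome 10, 128083273 to 128090391), ran at 723, 874 and 1004 CPM against 1155, 1228 and 1272 (0.49 ± 0.07, adjusted p = 5.7e-06). The alpha subunit Atp5a1 rose by 0.37 ± 0.07, from 625, 761 and 864 to 924, 972 and 1048 CPM. In complex IV, Cox6a1 (ENSMUSG00000041697, chromosome 5, 115345642 to 115348981) rose by 0.66 ± 0.11 from 64.2, 84.6 and 116 to 122, 143 and 151 CPM, and Cox5a by 0.64 ± 0.11 from 47.7, 70.7 and 81.1 to 95.7, 105 and 119 CPM.

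The other core proteins of complex III rose as well. Uqcrc1 was at 118, 134 and 161 CPM under vehicle and 188, 198 and 221 under pegIFNa (0.56 ± 0.07, adjusted p = 4.8e-07), and the Rieske iron-sulphur protein Uqcrfs1 at 61.2, 64.0 and 73.7 against 76.4, 81.1 and 85.2 (0.32 ± 0.05, adjusted p = 2.8e-05). Neither pair of ranges overlapped. Small subunits followed: Uqcrq and Uqcr10 of complex III both rose by 0.65 ± 0.11, Ndufa11 of complex I by 0.60 ± 0.11, Cox5b of complex IV by 0.59 ± 0.10, and Atp5l and Atp5o of complex V by 0.57 ± 0.10 and 0.54 ± 0.10. In complex IV some subunits exist as general and tissue-specific isoforms. Cox6b1 was at 48.8, 61.5 and 66.4 CPM under vehicle and 67.7, 77.3 and 87.8 under pegIFNa (0.40 ± 0.09), and Cox6b2, its counterpart known from testis, at 9.87, 10.9 and 13.2 against 12.2, 14.7 and 17.3 (0.41 ± 0.10). Cox7a2 and Cox8a, whose muscle-type counterparts Cox7a1 and Cox8b lay under the minimum, rose by 0.40 ± 0.10 and 0.46 ± 0.09.

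The c subunit of the ATP synthase rotor is made from 3 genes whose mature proteins are the same. Atp5g1 (ENSMUSG00000006057, chromosome 11, 96068852 to 96075670) ran at 52.6, 60.7 and 68.0 CPM under vehicle and 88.1, 101 and 106 under pegIFNa (0.73 ± 0.09, adjusted p = 2.3e-07). Atp5g3 went from 106, 138 and 165 to 174, 191 and 236 CPM (0.52 ± 0.10) and Atp5g2 from 32.9, 40.8 and 61.1 to 58.6, 61.4 and 68.8 (0.51 ± 0.10), with overlap for Atp5g2 only. All 3 rose. Of the other nuclear members, those that did not pass were Uqcrh of complex III (0.08 ± 0.07), the complex IV subunits Cox6c (0.18), Ndufa4 (0.09 ± 0.11) and Cox4i2 (0.36 ± 0.40), and Atp5s (-0.09).

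The 2 nuclear members that fell are not subunits of a complex. Cox7a2l, a factor that joins complexes III and IV into supercomplexes (ENSMUSG00000024248, chromosome 17, 83501919 to 83514333), ran at 151, 182 and 196 CPM under vehicle and 131, 140.4 and 155 under pegIFNa. The ranges met only through vehicle replicate 2, which was the lowest of its group (-0.35 ± 0.06, adjusted p = 2.9e-05). Atp5sl, a protein of complex I assembly despite its name (ENSMUSG00000057229, chromosome 7, 25619414 to 25625551), ran at 29.9, 32.9 and 37.3 CPM against 26.5, 28.8 and 31.5 (-0.21 ± 0.07, adjusted p = 0.011). Of the other 7 assembly and associated factors, 6 rose, with Ndufaf6 at the top (0.73 ± 0.11, adjusted p = 7.7e-06), from 6.54, 7.59 and 8.41 to 10.7, 13.1 and 15.1 CPM.

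Among the mitochondrial genes, mt-Co1, the catalytic subunit of complex IV (mitochondrial DNA, 5328 to 6872), had levels of 6892, 8056 and 11212 CPM under vehicle and 4674, 5406 and 6700.0 under pegIFNa. The groups did not overlap (-0.57 ± 0.12, adjusted p = 0.00043). Cytochrome b of complex III, mt-Cytb (14145 to 15288), went from 2226, 2773 and 3500.5 to 1448, 1649 and 2079 CPM, again without overlap (-0.71 ± 0.12, adjusted p = 2.0e-05). The only gene of the 13 on the other strand, mt-Nd6 (13552 to 14070), also fell: 324, 396 and 512 CPM against 188, 239 and 331, with a small overlap (-0.74 ± 0.15, adjusted p = 0.00016). The changes ranged from -0.39 ± 0.16 in mt-Nd2 (593, 857 and 1101 CPM against 506, 628 and 828; adjusted p = 0.046, kept in 5 of the 24 fits without 1 library, where it ran from 0.0183 to 0.152) to -0.84 ± 0.19 in mt-Nd3 (148, 208 and 284 CPM against 98.2, 113 and 174; adjusted p = 0.00072). The complex I gene mt-Nd5 went from 1395, 1739 and 2165 to 895, 1082 and 1256 CPM without overlap (-0.69 ± 0.12, adjusted p = 3.1e-05). Its neighbour mt-Nd4 had 1476, 1972 and 2422 CPM against 977, 1139.7 and 1476, where the ranges touched (-0.70 ± 0.14), and mt-Nd1 had 1177, 1433 and 2198 against 924, 1069 and 1356 (-0.48 ± 0.15). The complex IV subunits mt-Co2 and mt-Co3, which form the catalytic core with mt-Co1, were at 2596, 2973 and 4468 CPM against 1862, 2078 and 2590.2 and at 2389.9, 2746 and 3790.0 CPM against 1559, 1708 and 2029.6. Both were separate in range (-0.55 ± 0.13 and -0.69 ± 0.12). The 2 rRNAs of mitochondrial DNA were also counted: mt-Rnr2 (16S) fell by 0.66 ± 0.23 on the log2 scale (adjusted p = 0.019), and mt-Rnr1 (12S) was at -0.40 ± 0.26 (adjusted p = 0.20). None of the 22 tRNA rows reached the count filter in these polyA-selected libraries.

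Under upper-quartile scaling in place of TMM, 3495 genes rose and 5400 fell over the whole table (4474 and 4553 in the main analysis). With that scaling 66 nuclear members rose and 2 fell, and the 13 mitochondrial members fell. Markers of dividing cells moved with this comparison: 7 of 8 rose and their sum ran from 1813 to 3025 CPM under vehicle and from 3016 to 3345 under pegIFNa. Of 8 erythroid markers 6 fell and Klf1 was higher, with sums of 205 to 912 and 94.0 to 151 CPM, and the summed T and NK cell list went from 34.1 to 77.2 up to 70.6 to 104.7 CPM, nearly all of it Nkg7, with Cd3d, Cd3e and Cd3g at a mean of at most 0.0582 CPM. Their part in the result was not tested.

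The same treatment was then followed in Jak2V617F cells. Of the 86 nuclear members 71 rose and 1 (Cox7a2l) fell, against 21.7% and 22.3% of all genes that rose and fell, with a median of 0.31. The 13 mitochondrial members had a median of -0.19; all 13 estimates were negative, and 1, mt-Cytb, passed the test. Ranges were separate and higher under pegIFNa for 19 nuclear members (9.81% of all genes), and separate and lower for 0 of the 13 mitochondrial members (8.58% of all genes).

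By complex, 31 of 36 complex I subunits rose, 3 of 4 in complex II, 7 of 9 in complex III, 9 of 13 in complex IV and 15 of 15 in complex V. Ndufs5 was at 17.7, 20.6 and 23.0 CPM under vehicle and 23.6, 30.3 and 33.8 under pegIFNa, without overlap (0.52 ± 0.09, adjusted p = 5.4e-05). Sdhb was at 58.8, 74.5 and 79.6 CPM against 91.7, 106 and 109, also without overlap (0.52 ± 0.08, adjusted p = 1.9e-05). Sdha did not pass (0.07 ± 0.06, adjusted p = 0.39), at 263, 332 and 346 CPM against 314, 343 and 352. Cyc1 rose by 0.47 ± 0.08 (adjusted p = 0.0001) from 91.2, 113 and 124 to 129, 155 and 177 CPM, and Atp5b by 0.33 ± 0.07 (adjusted p = 0.001) from 861, 1066 and 1156 to 1198, 1342 and 1412 CPM, each without overlap. Atp5g1 rose by 0.49 ± 0.09, Atp5g3 by 0.39 ± 0.10 and Atp5g2 by 0.29 ± 0.10. Cox7a2l fell from 148, 161 and 175 to 127, 140.5 and 155 CPM (-0.20 ± 0.06, adjusted p = 0.0095), and Atp5sl did not pass (-0.08 ± 0.07).

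For mt-Cytb the Jak2V617F libraries were at 2724, 2881 and 3319 CPM under vehicle and 1799.5, 2318 and 2986 under pegIFNa, with overlap (-0.33 ± 0.12, adjusted p = 0.027, from 0.00894 to 0.0728 with 1 library left out). For mt-Co1 they were at 7419, 8274 and 9316 CPM against 5866, 7441 and 9829 (-0.11 ± 0.12, adjusted p = 0.48), and mt-Nd2 did not pass (854, 888 and 1184 CPM against 690.1, 944 and 1222; -0.01 ± 0.16, adjusted p = 0.98). The spread within the treated group was wide, with the mitochondrial share of replicates 1, 4 and 6 within the vehicle range. Leaving out 1 library at a time gave 0 to 5 mitochondrial calls. There were 5 without pegIFNa replicate 4, 3 without pegIFNa replicate 1 or 6, 2 without vehicle replicate 3 or without wild-type vehicle replicate 1 or 6, and 0 without pegIFNa replicate 2, 3 or 5 or vehicle replicate 2 or 5. The median stayed between -0.28 and -0.12. Of the 8 markers of dividing cells 2 rose in this comparison. Their sum ran from 2492 to 3539 CPM under vehicle and from 3252 to 3515 under pegIFNa. The erythroid sum went from 199 to 503 down to 35.7 to 139 CPM, without overlap. Klf1 went the other way, with means of 18.6 and 50.6 CPM. The T and NK cell sum went from 57.5 to 77.6 up to 94.3 to 148 CPM, also without overlap. Nearly all of it was Nkg7, with means of 64.6 and 118 CPM. The LT-HSC list had a median of 1350.0 CPM under vehicle and 974 under pegIFNa. Its 9 genes did not move together: 6 fell and 2 rose, and Ly6a had means of 53.2 and 263 CPM. The part of these lists was not tested. With upper-quartile scaling 2678 genes rose and 4223 fell over the whole table, against 3446 and 3545 with TMM, and 3 mitochondrial members passed.

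**Figure D2:**
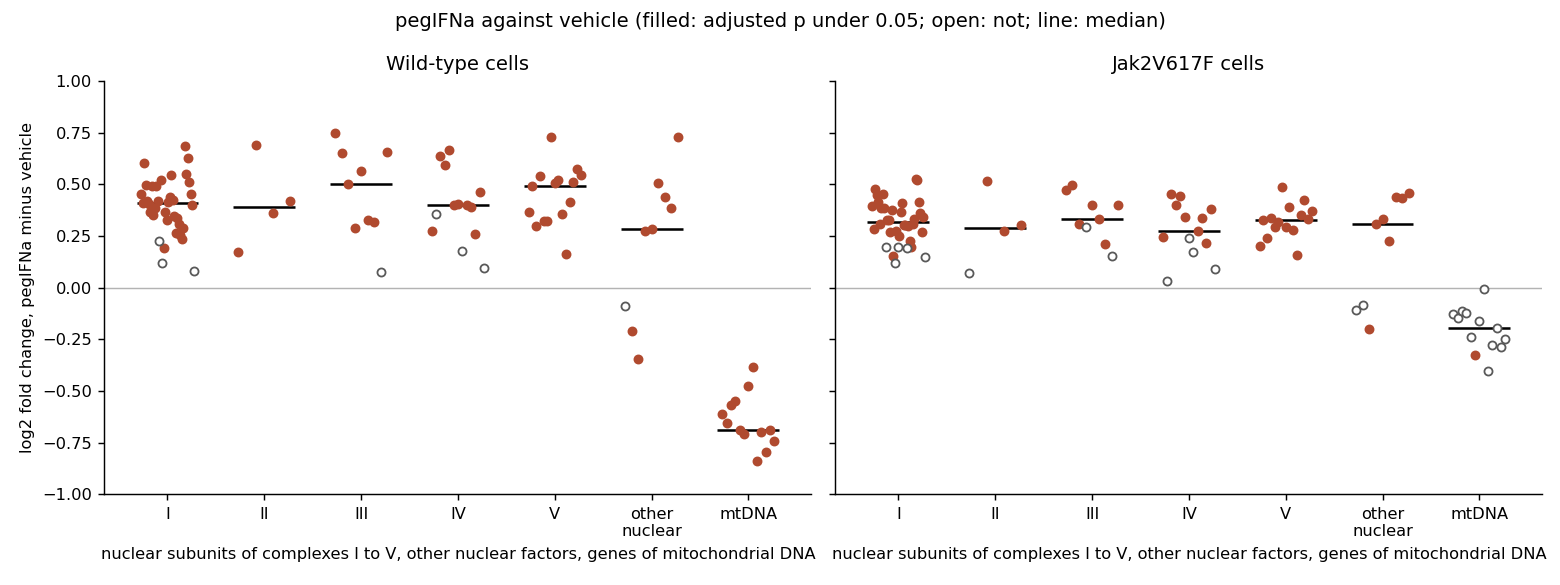
Log2 fold change, pegIFNa minus vehicle, of each of the 99 genes in wild-type (left) and Jak2V617F cells (right), by complex for nuclear subunits, then other nuclear factors and the genes of mitochondrial DNA (mtDNA); filled points passed adjusted p under 0.05 and bars are medians. The mitochondrial genes had a median of -0.69 on the left and -0.19 on the right, while nuclear medians were 0.40 and 0.31.

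Whether treatment acted differently in the 2 genotypes was asked of the interaction term. No gene of the 15879 (0% called) passed it in the main analysis. DESeq2 called 38 genes. A model with a block for each mouse, a term that takes up what its 2 libraries share, called 528 (3.33% of genes), and 0 members were among either. All 13 mitochondrial estimates were positive, meaning a smaller fall in Jak2V617F cells, with a median of 0.43. They ran from 0.31 ± 0.21 in mt-Nd1 to 0.60 ± 0.27 in mt-Nd4l, whose estimate was 0.31 (adjusted p = 0.65) with its copy Gm10222 added, and mt-Co3 had 0.45 ± 0.16 (adjusted p = 0.50, and 0.092 with the mouse block). Among nuclear members 71 of 86 estimates were negative, with a median of -0.08; Cyc1 was at -0.28 ± 0.12 (adjusted p = 0.55). The difference between genotypes in response thus passed for none of the 99 members.

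Genotype was compared next, within vehicle-treated mice. Nuclear members were higher in Jak2V617F than in wild-type LT-HSCs: 63 of 86 passed the test as higher, 1 (Atp5sl) as lower, and the median was 0.34. Of all genes, 8.48% were higher and 4.23% lower. No mitochondrial member passed, at a median of 0.06. Ranges were separate and higher for 12 nuclear members (1.76% of all genes). In 73 of the 86 nuclear members, and 0 of the 13 mitochondrial members, the Jak2V617F library was the higher of the pair in 6 of 6 mice, against 15.4% of all genes.

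Called members made up 26 of 36 subunits in complex I, 3 of 4 in complex II, 8 of 9 in complex III, 11 of 13 in complex IV and 13 of 15 in complex V, but 2 of the 9 assembly and associated factors were higher. The largest difference was in Uqcrq, a small subunit of complex III (ENSMUSG00000044894, chromosome 11, 53427922 to 53430831), with 28.1, 37.9 and 45.4 CPM in wild-type and 51.6, 58.0 and 64.9 in Jak2V617F cells (0.63 ± 0.11, adjusted p = 0.0019). Ndufc1, an accessory subunit in the membrane arm of complex I (ENSMUSG00000037152, chromosome 3, 51404677 to 51408988), had 13.3, 14.9 and 18.6 CPM against 20.1, 23.7 and 24.3 (0.56 ± 0.10, adjusted p = 0.0025). Neither pair of ranges overlapped. Cox5a was higher by 0.54 ± 0.11 (adjusted p = 0.0031), Cyc1 by 0.43 ± 0.09 (adjusted p = 0.0034) and Atp5b by 0.28 ± 0.07 (adjusted p = 0.016). Ndufa4 and Cox6c, which had not passed in either treatment comparison, were higher by genotype: Ndufa4 had 57.6, 78.5 and 88.4 CPM against 83.8, 99.1 and 106 (0.35 ± 0.11, adjusted p = 0.032) and Cox6c differed by 0.38 ± 0.10 (adjusted p = 0.015). Atp5sl had 29.9, 32.9 and 37.3 CPM in wild-type and 24.95, 29.8 and 30.3 in Jak2V617F cells, lower in 6 of 6 mice (-0.21 ± 0.07, adjusted p = 0.044). This call was kept in 5 of the 24 fits without 1 library, with adjusted p from 0.0246 to 0.13, and its adjusted p was 0.0075 with the mouse as a block.

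Other members high in their complexes were Ndufb4 (0.53 ± 0.12) and Ndufb6 (0.47 ± 0.12) of complex I, Uqcr10 (0.54 ± 0.11) and Uqcr11 (0.52 ± 0.12) of complex III, and Atp5k (0.53 ± 0.13), the e subunit that helps ATP synthase form dimers. Cox7a2 was at 28.5, 37.6 and 41.3 CPM in wild-type and 44.7, 48.6 and 52.9 in Jak2V617F cells, without overlap (0.46 ± 0.10, adjusted p = 0.0063). Among the members, Cox7b, Ndufa1 and Ndufb11 are X-linked, and the cells of the 2 genotypes differed in sex-linked genes. Cox7b was higher in Jak2V617F cells, at 63.5, 74.6 and 84.1 CPM against 39.3, 53.5 and 64.5 (0.51 ± 0.12, adjusted p = 0.011). Ndufa1 did not pass (0.34 ± 0.11, adjusted p = 0.0503) but did with the mouse as a block (adjusted p = 0.0050) and was higher in 6 of 6 mice. Ndufb11 did not pass (0.05 ± 0.06, adjusted p = 0.66).

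None of the mitochondrial genes passed: mt-Co1 had 6892, 8056 and 11212 CPM in wild-type and 7419, 8274 and 9316 in Jak2V617F cells (0.03 ± 0.12, adjusted p = 0.91), and mt-Cytb differed by 0.09 ± 0.12 (adjusted p = 0.63). In 4 of 6 mice the Jak2V617F library was the higher for both. With the mouse as a block 76 nuclear members were higher and 2 lower, against 17.5% and 13.6% of all genes; Cox7a2l was the added lower one (-0.16 ± 0.06 and adjusted p = 0.069 without the block, adjusted p = 0.0072 with it, lower in 6 of 6 mice). Without wild-type vehicle replicate 4, the library with the lowest nuclear share, 42 nuclear members were called. The calls over all genes in that fit are not given here. Of the 8 markers of dividing cells 5 were higher in Jak2V617F cells, with sums of 1813 to 3025 CPM in wild-type and 2492 to 3539 in Jak2V617F cells. The granulocyte and monocyte list summed to 243 to 797 against 244 to 1909 CPM, with 0 of 9 called. The LT-HSC list ran from 1586 to 2284 CPM in wild-type and from 1221 to 1668 in Jak2V617F cells. Of its 9 genes 1 was called higher and 2 lower. The megakaryocyte list had medians of 889 and 1364 CPM, with 2 of 5 called higher. Their part in the genotype difference was not tested. With upper-quartile scaling 1120 genes were higher and 927 lower over the whole table, against 1346 and 672 with TMM.

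Under pegIFNa, the genes of both genomes were higher in Jak2V617F cells. Of the mitochondrial members 12 of 13 passed as higher (mt-Nd4l did not) with a median of 0.53, and of the nuclear members 36 passed as higher and 0 as lower with a median of 0.23, against 4.16% of all genes called higher. The Jak2V617F library was the higher of the pair in 6 of 6 mice for each of the 13 mitochondrial and for 47 nuclear members, against 12.8% of all genes. Separate ranges were found for 2 nuclear members, Ndufa3 and Uqcrc2, and no mitochondrial one (1.65% of all genes). For mt-Co1 the levels were 4674, 5406 and 6700.0 CPM in wild-type and 5866, 7441 and 9829 in Jak2V617F cells (0.48 ± 0.12, adjusted p = 0.02). For mt-Cytb they were 1448, 1649 and 2079 against 1799.5, 2318 and 2986 CPM (0.48 ± 0.12, adjusted p = 0.015). For mt-Co3 they were 1559, 1708 and 2029.6 against 1884, 2517 and 3080.3 CPM (0.50 ± 0.11, adjusted p = 0.0099). The ranges overlapped although each mouse showed the same order.

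Among nuclear members, Ndufc1 had 16.4, 17.9 and 24.3 CPM in wild-type and 21.2, 26.1 and 31.5 in Jak2V617F cells (0.49 ± 0.10, adjusted p = 0.0053), and its highest wild-type library was replicate 6. Uqcrc2, a core protein of complex III, had 105, 121 and 129.5 CPM in wild-type vehicle, and under pegIFNa 139, 154 and 163 CPM in wild-type against 164, 173 and 198 in Jak2V617F cells (0.23 ± 0.06, adjusted p = 0.016). Uqcrh, which under vehicle passed only with the mouse as a block (adjusted p = 0.0068), had 72.1, 75.3 and 88.5 against 77.0, 96.0 and 102 CPM (0.28 ± 0.07, adjusted p = 0.016). Cox7b was higher by 0.45 ± 0.12, Atp5k by 0.44 ± 0.13, Ndufb4 by 0.40 ± 0.12 and Atp5e, the epsilon subunit, by 0.40 ± 0.11. In complex II none of the 4 genes passed without a block for the mouse. With the mouse as a block 64 nuclear members were higher (13.3% of all genes were) and 12 mitochondrial members. In complex II 3 of 4 were then called, Sdhb (0.13 ± 0.08, adjusted p = 0.33 without the block and 0.020 with it), Sdhc (0.15 ± 0.06, 0.098 and 0.0098) and Sdhd (0.22 ± 0.07, 0.064 and 0.0034), as were Atp5b (0.12 ± 0.07, adjusted p = 0.35 and 0.044) and Atp5g1 (0.22 ± 0.09, adjusted p = 0.11 and 0.010).

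The counts of this comparison depended on single libraries. Calls over all genes in the fits that follow are not given here. From the member counts alone, a loss of calls particular to the members cannot be told apart from a loss over all genes. Without Jak2V617F pegIFNa replicate 1, which stood apart on Xist, 5 nuclear and 3 mitochondrial members passed, and without it and wild-type vehicle replicate 4 together 13 and 4 did. Over all libraries left out in turn the nuclear count ran from 5 to 53 and the mitochondrial count from 3 to 12, with 3 also on leaving out Jak2V617F pegIFNa replicate 4 or 6 or wild-type pegIFNa replicate 2, 6 without wild-type pegIFNa replicate 5 and 7 without its replicate 3. Nuclear counts of under 24 came from leaving out Jak2V617F pegIFNa replicate 2 (18), 4 (6), 5 (20) or 6 (23) or wild-type pegIFNa replicate 1 (15), 2 (10), 3 (6), 4 (18) or 5 (13). The medians stayed between 0.21 and 0.27 for nuclear and between 0.44 and 0.60 for mitochondrial members. Granulocyte and monocyte markers ran higher in Jak2V617F cells here (4 of 9 called, sums of 136 to 477 against 722 to 1273 CPM), while 1 of 8 markers of dividing cells was called; their part was not tested.

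**Figure D3:**
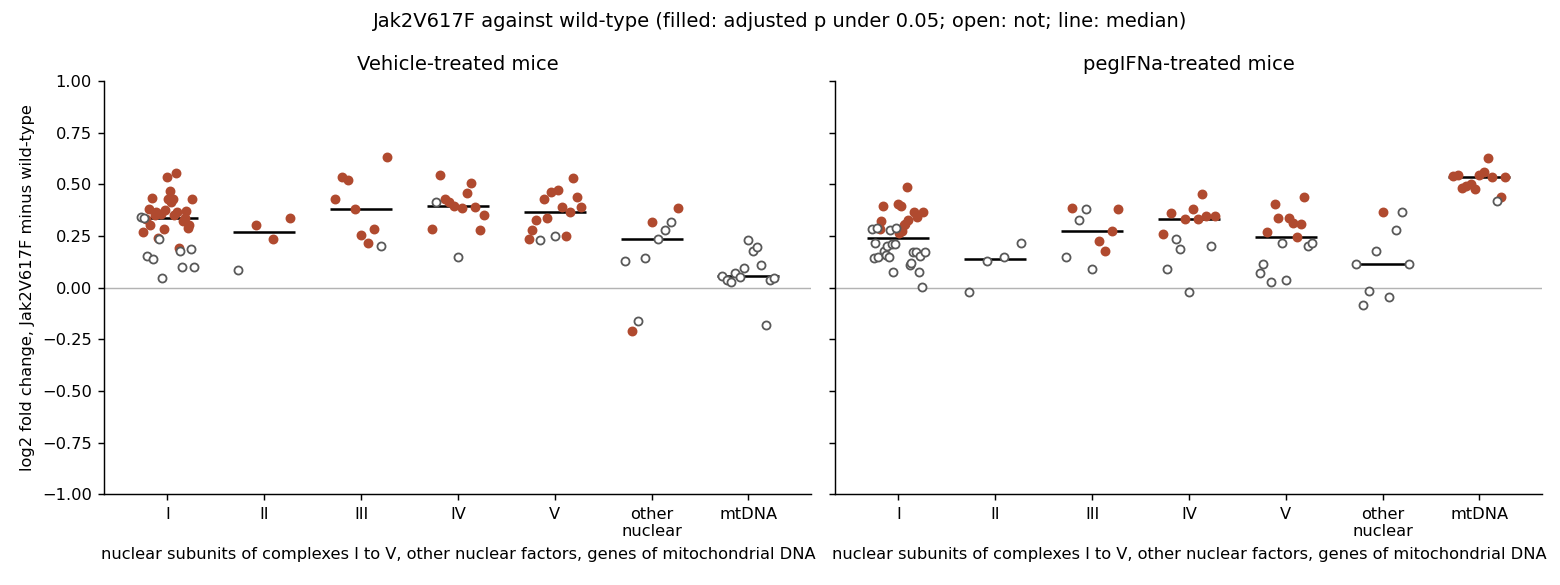
Log2 fold change, Jak2V617F minus wild-type, of each of the 99 genes in vehicle-treated (left) and pegIFNa-treated mice (right), arranged and marked as in the plot of treatment effects. Under vehicle the mitochondrial median was 0.06 with none called, and under pegIFNa it was 0.53 with 12 of 13 called.

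**Figure D4:**
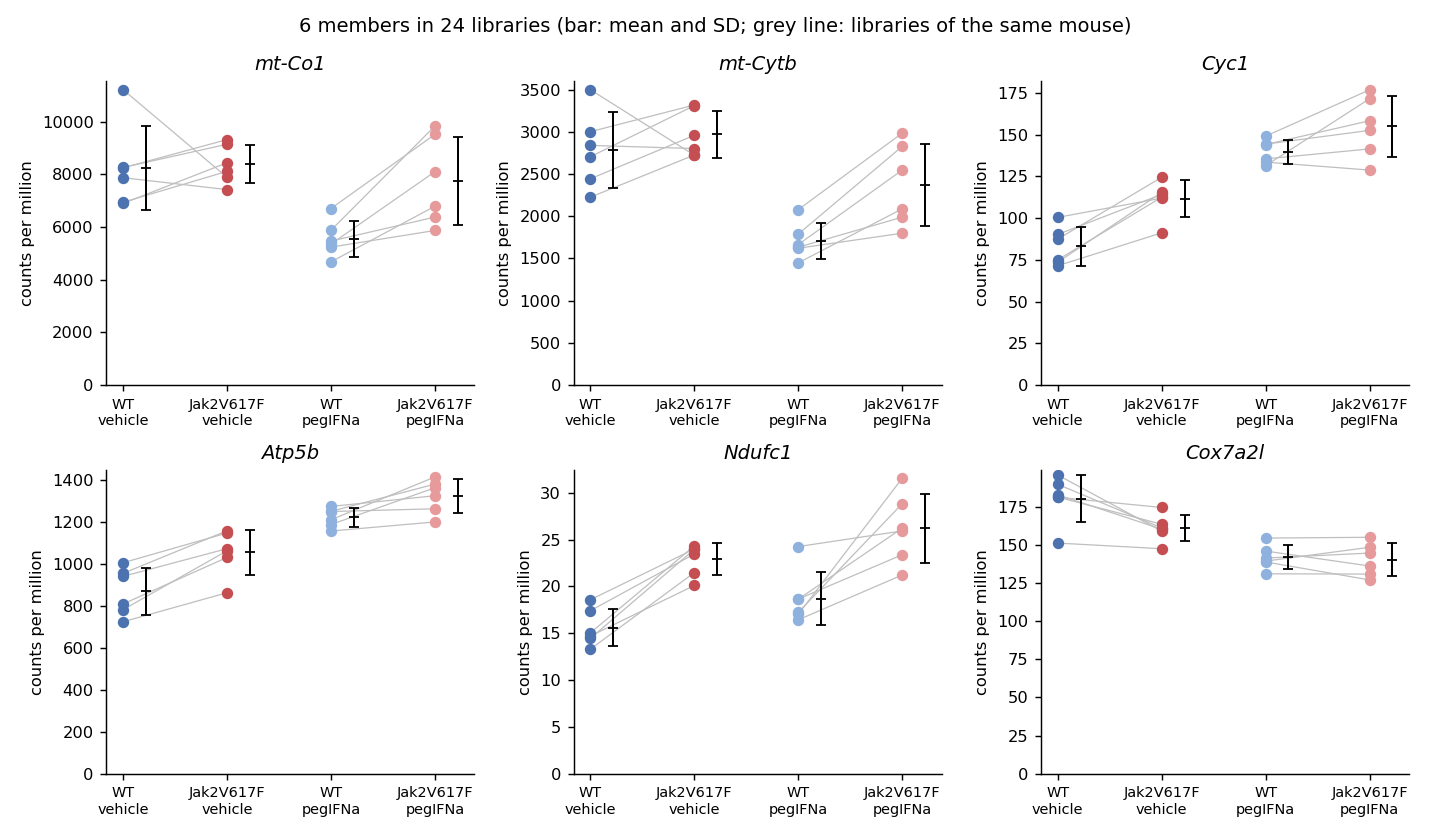
CPM of 6 members in the 24 libraries, with the mean and SD of each group as a bar and grey lines joining the libraries of a mouse. For mt-Co1 and mt-Cytb every pegIFNa line runs upward from wild-type to Jak2V617F, Cyc1 and Atp5b rise with treatment in both genotypes, Ndufc1 is higher by genotype, and Cox7a2l is lower under pegIFNa.

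Per length, the mitochondrial mRNAs were the most abundant members. Divided by the median length of a gene's annotated transcripts, mean levels in wild-type vehicle were 5330.5 CPM per kilobase for mt-Co1 and 5224 for mt-Atp6, down to 597 for mt-Nd4l. The highest nuclear levels were 453 CPM per kilobase for Atp5b, 294 for Atp5a1 and 231 for Cox4i1, and the lowest was 1.59 for Cox4i2. The 13 genes thus lay above every nuclear member in wild-type vehicle cells. In wild-type pegIFNa cells 5 of the 13 lay below Atp5b (637), the lowest being mt-Nd4l (344) and mt-Nd3 (349.6). Cox4i1 and its alternative isoform Cox4i2 differed widely, with 171 and 0.778 CPM as medians in wild-type vehicle, and Cox4i2 passed in no comparison.

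**Figure D5:**
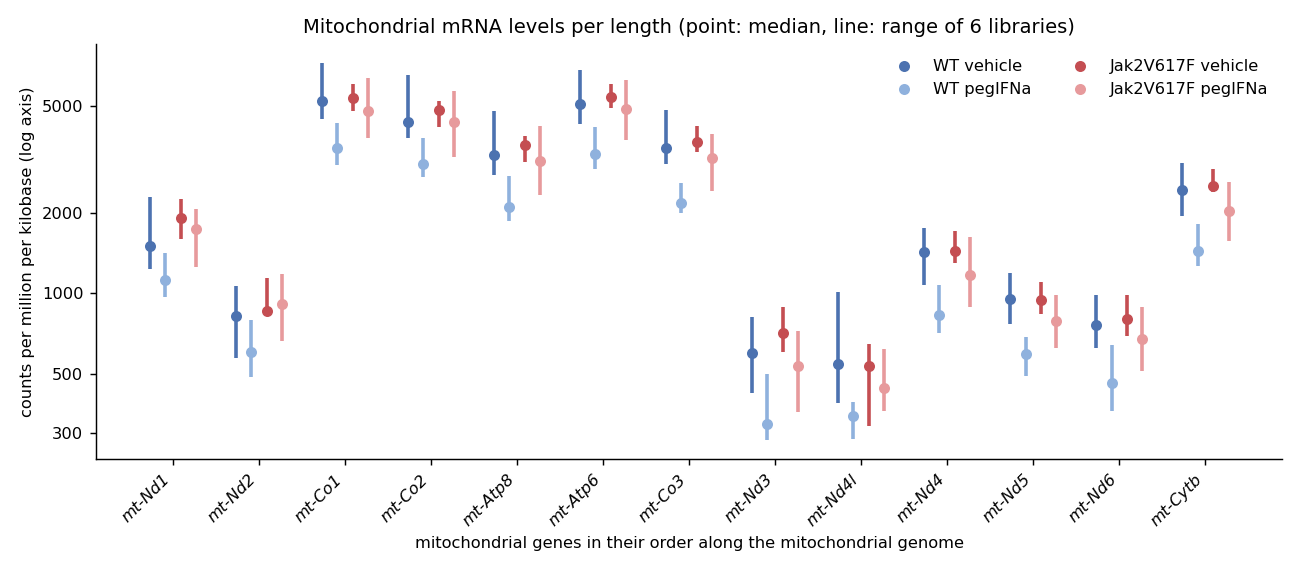
CPM per kilobase (log axis) of the 13 mitochondrial genes in their order along the mitochondrial genome, with the median as a point and the range of 6 libraries as a line for each group. The wild-type pegIFNa median is the lowest of the 4 groups for each gene.

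Some members share sequence with other genes, so their reads can be split. Of 99 members, 51 had no 75-base window (the read length) of their GENCODE M21 transcripts in a transcript of another gene on either strand, and 24 had more than 10% of their windows shared. The share was over 50% for 7: mt-Co3, mt-Co2, mt-Atp6, mt-Nd4l, mt-Nd3, mt-Nd4 and Ndufaf2. The mitochondrial ones share them with copies of mitochondrial DNA in the nuclear genome. Over the members with under 10% shared, 6 of 6 mitochondrial and 60 of 69 nuclear genes still passed in wild-type cells under pegIFNa (medians -0.67 and 0.41), with 1 nuclear member lower. Under pegIFNa 6 of 6 mitochondrial members were higher in Jak2V617F cells (median 0.54). Neighbours also overlap within mitochondrial DNA: mt-Atp8 ends inside mt-Atp6, and 43 bases belong to both, shown here because a read that covers them overlaps both genes. They lie at MT:7927-7969 on the plus strand (GRCm38), and the capitals mark the start codon of mt-Atp6.
mt-Atp8/mt-Atp6 overlap: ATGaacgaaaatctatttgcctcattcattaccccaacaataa
The 2 genes gave log2 changes of -0.65 ± 0.14 and -0.61 ± 0.13 in wild-type cells, with mt-Atp8 at 566, 667 and 981 CPM under vehicle and 381, 430.0 and 559 under pegIFNa and mt-Atp6 at 2915, 3475 and 4651 against 1977, 2257 and 2853. Both pairs of ranges were separate.

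For mt-Nd4l the split could be seen in the counts. Its copy on chromosome 1, Gm10222, shares 98.7% of its windows. In 22 of 24 libraries the 2 rows held the same value within 1%, and in the other two they did not: wild-type vehicle replicate 3 had 299.4 CPM for mt-Nd4l and 50.4 for Gm10222, and Jak2V617F vehicle replicate 3 had 94.7 and 251.9. The level printed for mt-Nd4l, 116, 161 and 299 CPM for wild-type vehicle and 85.0, 104 and 117 for wild-type pegIFNa, is therefore an allotted part of the reads. Summed, the 2 rows gave 232, 323 and 366 CPM in wild-type cells under vehicle, and 170.02, 207 and 233 under pegIFNa; the sums were 289, 343 and 385 in Jak2V617F vehicle and 216, 262 and 367 in Jak2V617F pegIFNa. With the sum in place of mt-Nd4l, an analysis chosen after seeing the data, mt-Nd4l passed in Jak2V617F against wild-type cells under pegIFNa (0.42, adjusted p = 0.039, and 0.42 ± 0.19, adjusted p = 0.18 without summing), so that all 13 mitochondrial members were called there. It also passed as lower under pegIFNa in Jak2V617F cells (-0.31, adjusted p = 0.048, and -0.19 ± 0.19 without summing).

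Genes around the respiratory chain mostly moved with its nuclear members. In wild-type cells under pegIFNa, 28.2% of all genes rose and 28.7% fell. Of 36 assembly factors outside the name rule, 22 rose, 1 fell and 13 were not called (median 0.25). The genes named from these lists are examples that rose, and those that fell are not named. Among the assembly factors they were Cox18 (0.81 ± 0.07), which inserts mitochondrially made subunits into the membrane, and Cox17 (0.57 ± 0.07), a copper carrier for complex IV. Of 10 electron carriers and exchangers 7 rose and 1 fell: cytochrome c (Cycs) went from 55.5 ± 11.3 to 96.1 ± 12.6 CPM (mean ± SD, n = 6, log2 0.79 ± 0.11) and the ADP/ATP exchanger Slc25a5 from 417 ± 71.0 to 629 ± 22.1. Of 13 citric acid cycle genes 10 rose, with Mdh2 (malate dehydrogenase) at 0.65 ± 0.07. Of 17 import and channel genes 16 rose, with Tomm40, the pore of the outer membrane, at 0.92 ± 0.09. In Jak2V617F cells under pegIFNa 19 of 36, 7 of 10, 11 of 13 and 15 of 17 rose in these lists and none fell. Of all genes 21.7% rose and 22.3% fell there.

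By genotype under vehicle, where 8.48% of all genes were higher, 10 of 36 assembly factors, 5 of 10 carriers, 4 of 13 citric acid cycle genes and 13 of 17 import genes were higher and none lower. Under pegIFNa, where 4.16% of all genes were higher, the numbers were 4, 1, 0 and 5, again with none lower.

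Of 17 genes for replication and transcription of mitochondrial DNA, 4 rose and 5 fell in wild-type cells under pegIFNa, close to the 28.2% and 28.7% of all genes. The polymerase that transcribes mitochondrial DNA, Polrmt, rose by 0.38 ± 0.09 (adjusted p = 0.0012), and its initiation factor Tfb2m fell by 0.33 ± 0.07 on the log2 scale (adjusted p = 0.00031). Tfam, which packages mitochondrial DNA, did not pass (0.14 ± 0.07, adjusted p = 0.083). Polg2, the accessory subunit of the DNA polymerase, changed by -0.45 ± 0.10. In Jak2V617F cells 4 of the 17 rose and 2 fell, where 21.7% and 22.3% of all genes did. By genotype 0 passed under vehicle, where 8.48% of all genes were higher and 4.23% lower. Under pegIFNa 4.16% of all genes were higher and 703 of 15879 lower. There Ssbp1, the single-strand binding protein of mitochondrial DNA, was higher (0.27 ± 0.08, adjusted p = 0.038) and Polg lower (-0.24).

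Of 19 genes for mitochondrial RNA processing and stability, 13 rose and 0 fell in each treatment comparison. Of all genes 28.2% rose and 28.7% fell in wild-type cells, and 21.7% and 22.3% in Jak2V617F cells. Lrpprc and Slirp, which together stabilise mitochondrial mRNAs, rose by 0.63 ± 0.06 and 0.48 ± 0.10 in wild-type cells. The RNA-degrading enzymes Pnpt1, Rexo2 and Supv3l1 rose by 0.83 ± 0.09, 0.63 ± 0.09 and 0.47 ± 0.05. By genotype 5 of 19 were higher under vehicle and 2 under pegIFNa, against 8.48% and 4.16% of all genes. Slirp was higher in both (0.39 ± 0.10 and 0.37 ± 0.09). Among 11 transcription factors and coactivators of respiratory genes 6 rose and 2 fell in wild-type cells. Nrf1 rose by 0.29 ± 0.06 (59.8 ± 3.63 to 73.0 ± 4.46 CPM), the coactivator Pprc1 by 0.61 ± 0.07, and Ppargc1a, a coactivator at the edge of detection, fell from 1.14 ± 0.386 to 0.226 ± 0.133 CPM. In Jak2V617F cells 4 rose and 3 fell, and by genotype Nrf1 was the only one called (0.18 ± 0.06 under vehicle, adjusted p = 0.039).

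Promoter sequences were read for 72 of the 86 nuclear members from RefSeq (GRCm38.p6, 250 bases before to 50 after the start). The palindrome that NRF1 binds, whose letters are the capitals in the sequences printed here, stood in 7 of the 72 (9.72%) and in 2.03% of 10440 tested protein-coding genes with a promoter there; searches covered both strands. With any base allowed at its A, which includes the palindrome itself, the numbers were 18 (25%) and 10.3%. The YY1 motif AAGATGGCG stood in 9.72% against 3.12%, the ETS core CCGGAAGT in 6.94% against 8.33%, and the TATA box TATAAA in 6.94% against 7.16%. A match is a description and not a site shown to be bound. The 170 bases before the start of 4 members that hold the palindrome are given, 1 from complex IV, 1 from complex V and 2 of complex I, with the palindrome in capitals, to show where it lies. Cox6a1 is on the minus strand at chr5:115348959-115349128, Ndufa11 on the plus strand at chr17:56717592-56717761, Atp5k on the minus strand at chr5:108434400-108434569 and Ndufaf4 on the plus strand at chr4:24897913-24898082.
Cox6a1: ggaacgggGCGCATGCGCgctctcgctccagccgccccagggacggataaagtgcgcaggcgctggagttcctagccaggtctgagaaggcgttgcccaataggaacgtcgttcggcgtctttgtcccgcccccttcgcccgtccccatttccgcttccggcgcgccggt
Ndufa11: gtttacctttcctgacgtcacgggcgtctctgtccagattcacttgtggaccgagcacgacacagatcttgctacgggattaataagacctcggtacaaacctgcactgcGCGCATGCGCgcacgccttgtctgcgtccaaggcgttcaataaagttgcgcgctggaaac
Atp5k: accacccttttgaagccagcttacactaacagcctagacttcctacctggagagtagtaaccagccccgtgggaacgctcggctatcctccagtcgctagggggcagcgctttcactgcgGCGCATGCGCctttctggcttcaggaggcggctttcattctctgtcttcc
Ndufaf4: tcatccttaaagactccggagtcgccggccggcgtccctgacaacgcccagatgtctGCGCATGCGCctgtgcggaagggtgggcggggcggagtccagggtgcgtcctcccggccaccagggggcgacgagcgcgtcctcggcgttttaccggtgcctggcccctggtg
The palindrome began 162, 60, 50 and 113 bases before the start in Cox6a1, Ndufa11, Atp5k and Ndufaf4. Of the members with it that are not printed, it began 42 bases before the start in Atp5g2. It began 16 and 30 bases after the start in Ndufaf5 and Uqcrc1. For Atp5g2 the RefSeq start used lay 3298 bases from the gene start in the deposited data. In wild-type cells under pegIFNa the median log2 change was 0.51 for the 7 members with the palindrome and 0.41 for the other members with a promoter, and in Jak2V617F cells 0.44 and 0.32, given without a test. For members with and without the other motifs, the wild-type medians were 0.55 and 0.41 (TATA box), 0.36 and 0.41 (ETS core) and 0.41 and 0.41 (YY1). In Jak2V617F cells they were 0.38 and 0.33, 0.31 and 0.33, and 0.33 and 0.33. A tie between motif and response was not tested. Cox6a1, Ndufa11, Atp5k and Ndufaf4 changed by 0.66 ± 0.11, 0.60 ± 0.11, 0.51 ± 0.13 and 0.44 ± 0.11 in wild-type cells.

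The members were also compared with all other genes by how their levels followed the mean of each set over the 24 libraries, which share groups and depth. By Spearman correlation, given as a description, the genes outside the set most like the nuclear mean were Psma7 (0.98), Nutf2-ps1 (0.97), Nedd8 (0.97), Fh1 (0.97) and Gm9840 (0.97). Psma7 is a proteasome subunit, Nedd8 a ubiquitin-like protein and Fh1 fumarase of the citric acid cycle. The nuclear members themselves had a median of 0.91, and Atp5sl ran against the set at -0.77. The mean of the mitochondrial set was most closely followed by the 16S rRNA mt-Rnr2 (0.88), then Gm12988 (0.82), Rpl22l1 (0.82), Rps3a (0.81) and Srgn (0.81). The 13 mitochondrial members had values from 0.89, in mt-Nd4l, to 0.98.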

How the data were processed

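RNA-seq was done on polyA RNA of sorted cells, with single-end reads of 75 bases, per the labels. The authors trimmed with cutadapt 1.11, aligned with STAR 2.5.2a and estimated expected counts per gene with RSEM 1.2.30 on GRCm38, per the submitters' processing notes; the annotation release and the counting strand are not given in the sources used here. The deposited expected counts were rounded to whole numbers for the tests (16.8% were not whole). Groups were compared in R 4.3.3 with the edgeR 4.0.16 quasi-likelihood test: TMM factors, filterByExpr with a minimum count of 10, 1 mean for each of the 4 groups, and Benjamini-Hochberg adjustment over 15879 genes. CPM are TMM-scaled. Symbols absent from the table were matched by gene ID. The fit was tested on simulated data.

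Mouse numbers in the library names pair the 2 libraries of a mouse. Deviations from group means correlated within all 12 pairs (0.119 to 0.416), and in 11 of 12 pairs the partner was the best match. The block cannot be used for treatment, which varies between mice. Most members were named by rule: the mitochondrial genes, up to 3 called members of each complex with the largest change in each direction, those that went against most members, core subunits and alternative isoforms. Some members were named outside this rule, such as ones not called, X-linked ones and ones with separate ranges. The rule did not cover the genes named from the other lists. The members and lists were chosen with earlier results of these data known, and the YY1 motif was shortened after a first search. Alternatives were other scalings (RLE, upper quartile, without mitochondrial genes), filters, DESeq2 1.42.0, the mouse block and leaving out libraries.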

Additional observations from a re-analysis of the deposited data

Results flagged for a closer look

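In 11 of 124 groups of 6 libraries, 1 library lay far from the other 5, with a gap to its nearest neighbour above the critical value of Dixon's test at that group size; chance gives about 1 in 20 groups. Wild-type vehicle libraries gave 5 of these. Replicate 6 had 11212 CPM of mt-Co1 where the others had 6892 to 8259, and replicate 3 had 299.4 CPM of mt-Nd4l where the others had 116 to 183, the library in which its copy Gm10222 was low. Replicate 1 had 61.6 CPM of Ndufs7 (others 52.2 to 54.0) and 208 of Cox4i1 (others 156 to 175). Replicate 2 had 151 CPM of Cox7a2l (others 181 to 196). Among wild-type pegIFNa libraries, replicate 6 had 24.3 CPM of Ndufc1 (others 16.4 to 18.7).

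Jak2V617F vehicle replicate 4 was low in 3 genes, with 65.6 CPM of Atp5g1 (others 82.4 to 92.4), 263 of Sdha (others 323 to 346) and 58.8 of Sdhb (others 72.8 to 79.6). It also had the lowest nuclear share of its group, 0.730%. Jak2V617F pegIFNa replicate 3 was low in 2 genes, with 77.0 CPM of Uqcrh (others 93.0 to 102) and 91.7 of Sdhb (others 105 to 109), and had the lowest nuclear share of its group, 0.841%.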

How the results depend on the processing

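No called value changed its direction. Of 224 estimates for named genes 16, none of them called, changed sign under at least 1 alternative; mt-Nd4l between genotypes under vehicle was at -0.18, and at 0.11 when summed with its copy. Counts of called mitochondrial members under pegIFNa in Jak2V617F cells (1 here) were 2 with a filter of 1 CPM in 12 libraries, with DESeq2, with RLE factors and with mt-Nd4l summed with Gm10222 (chosen after seeing the data), 3 with upper-quartile factors and 3 without both libraries that stood apart, and 0 to 5 with 1 library left out. Between genotypes under vehicle, 42 to 70 nuclear members were called with 1 library left out. Calls over all genes in the fits with 1 library left out are not given here. Under pegIFNa, nuclear calls between genotypes (36 here) were 21 with no filter, 64 with the replicate block for the mouse, 13 without both libraries and 5 to 53 with 1 left out; mitochondrial calls (12 here) were 4 and 3 to 12. Under vehicle the block raised nuclear members called lower from 1 to 2 and calls over all genes from 2018 to 4944; interaction calls over all genes went from 0 to 528. The cause of these changes was not tested. In the main fit the p-values measure the spread between recipients of donor marrow and take the 2 libraries of a mouse as independent. The pairing by mouse is used only with the mouse block, whose p-values measure the spread of the genotype difference within mice.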
